A study of Homo sapiens with 10 samples.

Results

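MYC and 31 genes of ribosome biogenesis were followed across 4 lines of LNCaP-C4-2, a castration-resistant human prostate cancer cell line in which the amount of CPT1A had been lowered or raised. CPT1A is the carnitine palmitoyltransferase of the outer mitochondrial membrane, which makes the acyl-carnitines that carry fatty acids into mitochondria. The 32 genes were chosen by symbol for their role, with earlier results of these data known. All 32 were found among the 57353 gene symbols of the count table, and all 32 were among the 17230 genes that passed the expression filter and were tested. In the knockdown arm, 2 samples carried a scrambled, non-targeting shRNA (NT) and 3 carried an shRNA against CPT1A (KD), and both lines were selected with 1 µg/ml puromycin. In the overexpression arm, 2 samples carried empty lentivirus (EV) and 3 carried a lentivirus with CPT1A cDNA (OE), and the labels give 5 µg/ml blasticidin for this arm. Every line therefore had been transduced and had been under drug selection, and the arms differed in vector and drug. The samples of a line are numbered replicates of 1 line with no separate transductions described, so p-values here measure the spread between these samples, which may be technical.

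Ribosome biogenesis starts in the nucleolus, where RNA polymerase I transcribes the long precursor of the ribosomal RNAs. Small nucleolar ribonucleoproteins (snoRNPs) modify the precursor, and large sets of assembly factors cut it, fold it and add ribosomal proteins until the small and the large subunit leave the nucleus. MYC, a basic helix-loop-helix transcription factor that binds E-box sequences together with MAX, is a known activator of many genes of each of these steps, and the MYC gene is often gained or overexpressed in prostate cancer.

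The libraries held 23555205 to 28615770 counts. Levels are given as CPM, the usual scaling of counts to library size, here with TMM factors, and a CPM is a share of a library, so that a change of the whole RNA content of a cell would not be seen in it, and fewer cells of a kind and less RNA per cell could not be told apart. CPT1A averaged 264 CPM in NT and 84.6 CPM in KD, and it averaged 322 CPM in EV and 882 CPM in OE, which is the order the labels give. All 8 prostate lineage markers examined were expressed in every sample, with KLK3 the highest at 2355 to 5946 CPM. Their summed level, in which KLK3 weighs most, differed by line. The sums were 6011 and 6282 CPM for NT and 8705 to 9513 CPM for KD. Those of the other arm were 8316 and 8735 CPM for EV and 11533 to 11942 CPM for OE. Single markers did not all follow the sum. With KD against NT, 7 of the 8 had a positive log2 fold change and 1 a negative one. That 1 was FOLH1, whose mean was 1003 CPM for NT and 686 CPM for KD. With OE against EV, 6 were positive and 2 negative. The negative ones were FOLH1 (means of 747 and 823 CPM) and TMPRSS2 (1033 and 1154 CPM). The markers COL1A2 of fibroblasts, CD3E of immune cells and KRT5 of basal cells had 0 counts in all 10 samples. Other fibroblast markers were present, with COL1A1 at 8.46 to 15.6 CPM, PDGFRB at 1.06 to 2.91 CPM and COL3A1 at 0.0798 to 2.07 CPM. Each of these was higher in every KD sample than in both NT samples. VIM was at 80.3 and 81.7 CPM in NT and 30.4 to 39.5 CPM in the other 8 samples. The markers of basal or other prostate lines, VIM among them, summed to 80.7 and 82.2 CPM in NT and to 31.3 to 41.5 CPM elsewhere. Nearly all of the sum in NT was VIM. NT, the line in which NPM1 and GNL3 were highest, thus stood apart in VIM too, and the part of this in the members' values was not tested. KD replicate 2 and OE replicate 2 stood farthest from the other samples of their line, where chi-square per degree of freedom, computed on the counts of a pair, was 7.18 and 7.33 with KD replicate 2 and 4.07 and 4.72 with OE replicate 2, against 2.09 for the EV pair.

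Most members differed little between lines, and they did not move as a block. The ratio of the highest to the lowest line mean ran from 1.16 for NOP56 to 2.24 for NOP58 with a median of 1.33, and it was below 2 for 30 of the 32. The same ratio was not computed over all genes, so whether the members differ from other genes in it is not known. A gene was called changed where edgeR's quasi-likelihood test across all genes gave a Benjamini-Hochberg adjusted p under 0.0001, the limit used in the study. The test was run for 5 comparisons. With OE against EV, 6 members rose and 5 fell. Of all genes tested in that comparison 21.9% were called (11.6% higher and 10.3% lower), so the members' share of 34.4% stands beside that background. With KD against NT, 6 members rose and 4 fell, or 31.3%, close to the 29.1% of all genes (16.4% higher and 12.8% lower). The median log2 fold change of the 32 members was 0.06 with OE against EV and 0.15 with KD against NT, while over all genes it was -0.02 in both. At the wider limit of adjusted p under 0.05, the members called were 19 with OE against EV, 22 with KD against NT, 18 in the interaction, 13 with EV against NT and 24 with OE against KD, beside 52%, 57.5%, 44.3%, 34.1% and 59.8% of all genes.

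**Figure D1:**
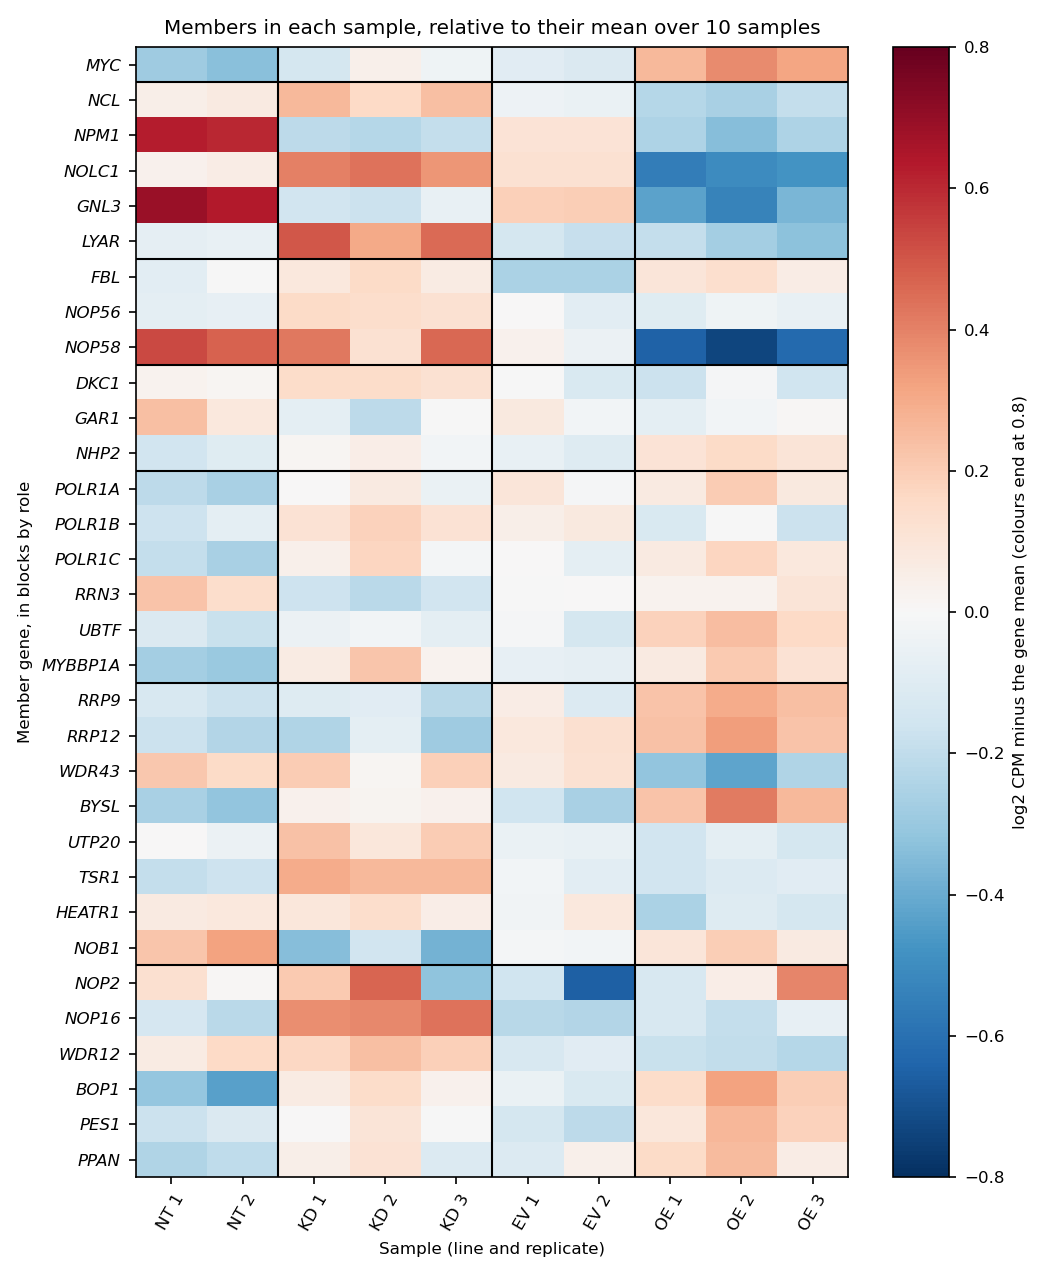
Heat map of log2 CPM in each of the 10 samples minus the mean of the gene over samples (red higher, blue lower), for the 32 members (vertical axis, grouped by role) and the samples of NT, KD, EV and OE (horizontal axis). Samples of 1 line look alike for most members, though not for NOP2 with its few counts, and rising and falling members stand side by side within the same role, as for TSR1 and NOB1 in KD or FBL and NOP58 in OE.

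The count with OE against EV depends on single libraries and settings. Without EV replicate 1, 3 members rose and 4 fell with OE against EV, and without EV replicate 2, 1 rose and 4 fell. With library size as the only scaling, which moved the median over all genes to -0.12, the split in that comparison was 3 higher and 7 lower. With an offset for GC content, 3 rose and 3 fell. The GC content of the 5 members that fell in the main test was 37.9% (NPM1) to 47.8% (NOLC1). That of the 6 members that rose was 48.8% (MYC) to 65.6% (BOP1). The cause of this difference was not tested. Without KD replicate 2 and OE replicate 2 together, which was tried only once the values were known, 6 rose and 7 fell with OE against EV, and 13 rose and 4 fell with KD against NT, where leaving out any 1 sample gave 8 to 11 calls. Of the 47 values called for members over the 5 comparisons, 0 changed sign in any alternative.

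MYC itself was highest in OE and lowest in NT. MYC lies on chromosome 8, from 127735434 to 127742951 on the plus strand (GRCh38). It was at 376 and 369.7 CPM in the EV samples and at 479.6, 519 and 498 CPM in the OE samples. Every OE sample was above both EV samples, and the rise was 1.34-fold (log2 fold change 0.42 ± 0.0514 SE, adjusted p = 3.18e-07). It was at 328 and 317 CPM in NT and 363, 411 and 389.5 CPM in KD, so the groups did not overlap there either. That difference of 0.26 in log2 had an adjusted p of 0.000102, just outside the limit. It passed the limit in alternatives such as the DESeq2 Wald test (adjusted p = 2.24e-06) and without KD replicate 2 (7.01e-05), where the log2 fold change was 0.22. It did not pass with the GC offset, with at least 10 counts in every sample or with each arm fitted alone. Nor did it pass without KD replicate 3, OE replicate 1 or OE replicate 3. Over all alternatives the log2 fold change ran from 0.21 with the GC offset to 0.30 without KD replicate 1.

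The MYC values thus lay above their control in both arms, although CPT1A was raised in one and lowered in the other. The difference between them, the interaction, was 0.16 ± 0.0721 SE in log2 with an adjusted p of 0.0836, and did not pass either limit. With the controls left out, MYC was 1.29-fold higher in OE than in KD (log2 fold change 0.36 ± 0.0454 SE, adjusted p = 2.3e-07). The control lines differed by 0.21 in log2, with EV the higher (adjusted p = 0.00562).

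Promoter sequences of the members were searched for the canonical E-box, whose letters CACGTG read the same on both strands. RefSeq windows of 250 bases before to 50 bases after the gene start (GRCh38.p14) were matched for 27 members, and MYC, BOP1, NOP58, NOLC1 and RRP12 had no entry. Some genes have several starts and so several windows. Counted by gene, the letters were present in at least 1 window of 11 of the 27 members (40.7%), of 2396 of 27305 genes with a window (8.77%) and of 1384 of 10894 tested genes with a window (12.7%). Counted by window, they were present in 11 of 35 windows of members (31.4%), in 2548 of 35116 of all genes (7.26%) and in 1490 of 15772 of tested genes (9.45%). GAR1, GNL3 and LYAR each also had a window without them. The 11 members were BYSL, FBL, GAR1, GNL3, LYAR, MYBBP1A, NOP2, PES1, RRP9, UTP20 and WDR43. A match of letters is a description of the window and shows no binding, since MYC binding was not measured here. The windows of the 4 members with the smallest interaction p among those that hold the letters are printed from 100 bases before to 20 bases after the start, 5′ to 3′ on the strand of the gene, with the E-box in capitals, to show where it lies.
LYAR, chr4:4290002-4290121, minus strand: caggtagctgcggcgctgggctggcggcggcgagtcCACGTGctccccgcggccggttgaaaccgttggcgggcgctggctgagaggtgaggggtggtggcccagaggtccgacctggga
WDR43, chr2:28894567-28894686, plus strand: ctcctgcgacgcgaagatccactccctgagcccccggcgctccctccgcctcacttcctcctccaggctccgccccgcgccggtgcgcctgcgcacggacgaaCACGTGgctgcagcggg
UTP20, chr12:101280005-101280124, plus strand: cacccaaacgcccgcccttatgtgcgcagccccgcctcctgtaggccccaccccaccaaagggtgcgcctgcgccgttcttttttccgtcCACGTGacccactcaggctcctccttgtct
FBL, chr19:39846360-39846479, minus strand: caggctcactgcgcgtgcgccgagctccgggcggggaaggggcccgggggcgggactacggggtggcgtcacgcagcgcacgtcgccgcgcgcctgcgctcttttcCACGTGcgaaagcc
Counted from the start that the printed window belongs to, the first base of the box lies at -64 in LYAR and at -10 in UTP20. It lies at 4 in WDR43 and at 7 in FBL, within the transcribed part. For LYAR the printed window belongs to an inner start. The annotated gene begins at 4290154 on the minus strand, so the LYAR box lies inside the gene as annotated.

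These 4 genes were chosen by their interaction p, so their responses cannot speak for the box. With OE against EV, FBL rose and WDR43 fell, while LYAR and UTP20 were not called. Among the 11 members with the letters, 3 rose and 2 fell in that comparison. Among the 16 members with windows and without them, 1 rose and 1 fell, beside 21.9% of all genes called. With KD against NT, 2 rose and 1 fell of the 11, and 2 rose and 3 fell of the 16, beside 29.1% of all genes. In the interaction 0 of the 11 were called, and of the 16, 3 were positive and 2 negative, beside 15.9% of all genes. The median interaction was 0.18 in log2 for the 11 and -0.17 for the 16.

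The nucleolar scaffold and transport proteins held 3 of the 5 falls in OE. Of these 5 members, 0 rose and 3 fell with OE against EV, and 2 rose and 2 fell with KD against NT. Over all genes, 11.6% rose and 10.3% fell with OE against EV, and 16.4% rose and 12.8% fell with KD against NT. These shares stand beside the counts of each role group below, which are small. NPM1, the abundant nucleolar chaperone nucleophosmin (chromosome 5, 171387116 to 171411810), was at 1789.8 and 1755 CPM in NT and at 1003, 990.3 and 1016 CPM in KD. It was at 1251 and 1251 CPM in EV and at 975, 915 and 974 CPM in OE. Both NT samples stood above all others, and the groups did not overlap in either arm. NPM1 fell 1.77-fold in KD (log2 fold change -0.82 ± 0.0444 SE, adjusted p = 1.09e-13) and 1.31-fold in OE (log2 fold change -0.39 ± 0.0447 SE, adjusted p = 1.29e-07). The second of these calls was lost with an offset for GC content, where the log2 fold change was -0.048 (adjusted p = 0.376).

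GNL3, the nucleolar GTP-binding protein nucleostemin (chromosome 3, 52681156 to 52694497), had the same order. It was at 334 and 321 CPM in NT, 186, 184 and 198 CPM in KD, 236 and 237 CPM in EV and 153, 143 and 161 CPM in OE. No groups compared overlapped, and GNL3 fell 1.73-fold in KD (log2 fold change -0.79 ± 0.0502 SE, adjusted p = 2.11e-12) and 1.55-fold in OE (log2 fold change -0.63 ± 0.0512 SE, adjusted p = 5.72e-10). GNL3 and NPM1 were the only members called lower in both arms. Both were also lower in EV than in NT, by -0.47 and -0.50 in log2 (adjusted p = 5.63e-07 and 3.05e-08).

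NOLC1, a phosphoprotein that binds snoRNPs and moves with them between nucleolus and Cajal bodies (chromosome 10, 102152176 to 102163871), was the only member called in opposite directions in the arms. It was at 327 and 331 CPM in NT and 421, 431 and 407 CPM in KD, and at 346 and 347 CPM in EV and 217, 224 and 228 CPM in OE. The 4 control samples lay close together, all KD samples above them and all OE samples below. NOLC1 rose 1.28-fold in KD (log2 fold change 0.35 ± 0.0445 SE, adjusted p = 3.11e-07) and fell 1.55-fold in OE (log2 fold change -0.63 ± 0.0442 SE, adjusted p = 4.96e-11). The interaction was -0.99 ± 0.0629 SE (adjusted p = 8.3e-12), the smallest p of any member, and it was called in every alternative run with the same limit of p.

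**Figure D2:**
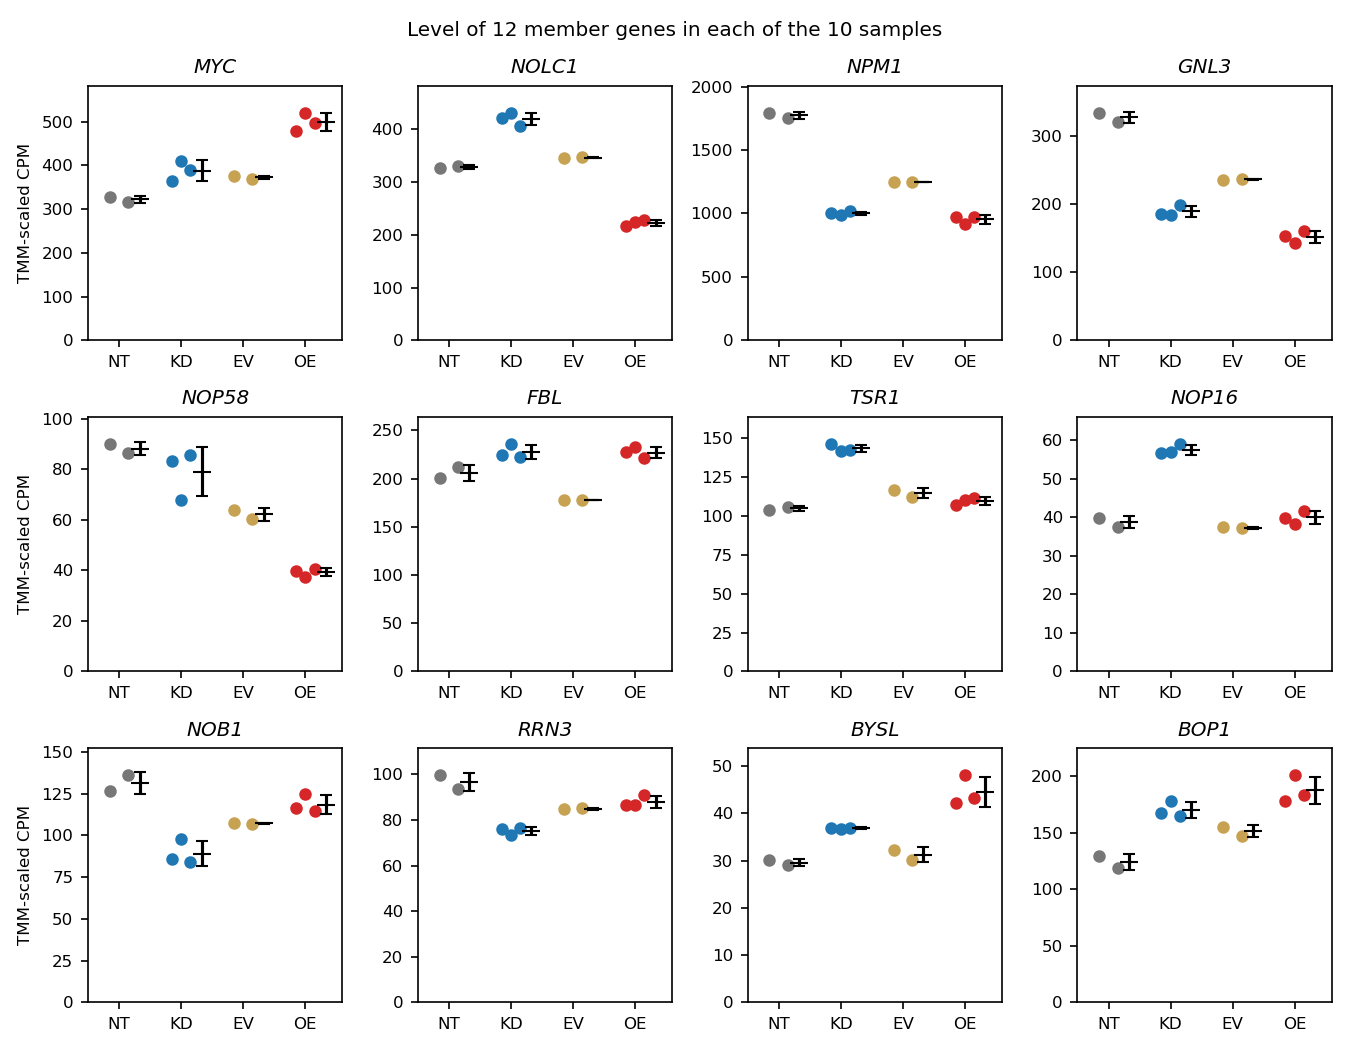
TMM-scaled CPM (vertical axes, from 0) of 12 members in each sample of NT, KD, EV and OE (horizontal axes), with points for samples and, beside them, the line mean with bars of 1 SD. MYC was highest in the 3 OE samples, NPM1 and GNL3 were highest in the 2 NT samples, and NOLC1 was above the controls in KD and below them in OE.

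NCL, the RNA-binding protein nucleolin, was, like NOLC1, highest in KD and lowest in OE. It averaged 884 ± 10.2 CPM (SD, n = 2) in NT and 988 ± 35.6 CPM (SD, n = 3) in KD, and 821 ± 5.82 CPM (SD, n = 2) in EV and 726 ± 17.7 CPM (SD, n = 3) in OE. Neither arm passed the limit (adjusted p = 0.00391 and 0.00207), but NCL was lower in OE than in KD with the controls left out (log2 fold change -0.44 ± 0.0407 SE, adjusted p = 1.37e-09). LYAR, a zinc-finger protein of the nucleolus, was at 17.1 and 17.2 CPM in NT and 25.3, 22.1 and 24.5 CPM in KD, without overlap, and at 14.3 to 16.3 CPM in the 5 samples of the other arm. LYAR rose in KD (log2 fold change 0.49 ± 0.08 SE, adjusted p = 1.37e-05). That call was lost when either NT sample or KD replicate 1 or 3 was left out, where the adjusted p ran from 0.000111 to 0.000772.

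The box C/D snoRNP proteins, the core of the particles that methylate ribose in ribosomal RNA, went different ways in OE. FBL, the methyltransferase fibrillarin (chromosome 19, 39834458 to 39846379), was at 178 and 178 CPM in EV and 227, 233 and 222 CPM in OE. Its partner NOP58 (chromosome 2, 202265736 to 202303661) was at 63.9 and 60.4 CPM in EV and 39.9, 37.6 and 40.6 CPM in OE. All OE samples were above EV for FBL and below EV for NOP58. FBL rose 1.28-fold (log2 fold change 0.35 ± 0.0471 SE, adjusted p = 1.16e-06) and NOP58 fell 1.58-fold (log2 fold change -0.66 ± 0.0754 SE, adjusted p = 1.23e-07). The FBL call was lost with the GC offset (adjusted p = 0.000102) and without EV replicate 2 (0.000151).

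NOP58 had the largest ratio between line means of all members. It was at 90.0 and 86.6 CPM in NT and at 83.5, 68.0 and 85.9 CPM in KD, where KD replicate 2 was the lowest of the 5 samples and the difference was not called. OE was 2.01-fold below KD (log2 fold change -1.01 ± 0.0672 SE, adjusted p = 5.16e-12), and EV was below NT (log2 fold change -0.51 ± 0.0787 SE, adjusted p = 2.35e-05). The call between the control lines was lost without any 1 of the 4 control samples, where the adjusted p was 0.000331 to 0.00153. The third core protein, NOP56, ranged only from 173 to 206 CPM over the 10 samples and was called in 0 comparisons.

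The box H/ACA snoRNP proteins, which form the pseudouridine-making particles and are also part of telomerase, changed little. DKC1, the pseudouridine synthase dyskerin, was at 162, 161 and 159 CPM in KD and 129.4, 145 and 131 CPM in OE. It was lower in OE in the comparison without controls (log2 fold change -0.25 ± 0.0468 SE, adjusted p = 5.84e-05), a call that was lost without either NT sample, EV replicate 1, KD replicate 1 or 3, or OE replicate 1 or 3 (adjusted p from 0.000138 to 0.00138). GAR1 was at 11.8 to 16.1 CPM and NHP2 at 113 to 139.4 CPM, and neither was called in any comparison. NHP2 was nearest to a call with OE against EV (log2 fold change 0.20 ± 0.0473 SE, adjusted p = 0.000856).

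Among the 6 members of RNA polymerase I transcription, 1 rose and 0 fell in OE, and 1 rose and 1 fell in KD. POLR1A and POLR1B, the large subunits of the enzyme, and POLR1C, a subunit shared with RNA polymerase III, were called in 0 comparisons. Their KD means of 131.6, 62.1 and 32.8 CPM were all above the NT means of 111, 51.9 and 26.7 CPM, and the adjusted p was 0.00047, 0.000532 and 0.00103. With the replicate number as a block, POLR1A and POLR1B were called higher in KD. RRN3, which brings the polymerase to the ribosomal RNA gene promoter (chromosome 16, 15060033 to 15094311), was at 99.6 and 93.8 CPM in NT and 75.8, 73.2 and 76.3 CPM in KD, without overlap. RRN3 fell in KD (log2 fold change -0.36 ± 0.0499 SE, adjusted p = 1.06e-06) while EV at 84.6 and 85.2 CPM and OE at 86.5, 86.5 and 91.0 CPM differed little. Its interaction was called (log2 fold change 0.42 ± 0.0712 SE, adjusted p = 4.03e-05) but was lost without either NT sample, either EV sample, or OE replicate 1 or 3 (adjusted p from 0.000123 to 0.0012), and its fall in KD was lost without NT replicate 1 (0.000306).

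UBTF, which binds and opens ribosomal DNA, averaged 125 ± 7.83 CPM in EV (SD, n = 2) and 150.5 ± 4.84 CPM in OE (SD, n = 3) and rose in OE (log2 fold change 0.27 ± 0.0503 SE, adjusted p = 8.17e-05). The UBTF call was the least stable of all, since it was lost in 11 alternatives, among them the removal of either NT sample, either EV sample, KD replicate 1 or any OE sample (adjusted p from 0.000121 to 0.0126). MYBBP1A, a nucleolar MYB-binding protein known to restrain RNA polymerase I, was at 178 and 174 CPM in NT and 224, 249.7 and 218 CPM in KD. The groups did not overlap, and MYBBP1A rose 1.31-fold (log2 fold change 0.39 ± 0.0549 SE, adjusted p = 1.49e-06), though not past the limit without NT replicate 2 (adjusted p = 0.000185).

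In the small subunit group of 8 members, 1 rose and 1 fell in each arm. BYSL, or bystin, an assembly factor of the small subunit (chromosome 6, 41921499 to 41933046), was at 32.3 and 30.1 CPM in EV and 42.2, 48.1 and 43.3 CPM in OE. All OE samples were above EV, and the rise was 1.42-fold (log2 fold change 0.51 ± 0.0668 SE, adjusted p = 8.8e-07), the largest rise called among members in that comparison. Without EV replicate 2 its adjusted p was 0.000221. WDR43, a component of the early processing complex called the small subunit processome, was at 81.9 and 84.7 CPM in EV and 62.5, 58.2 and 65.7 CPM in OE and fell (log2 fold change -0.42 ± 0.061 SE, adjusted p = 3.44e-06). That call was lost with the GC offset (adjusted p = 0.0106) and without EV replicate 1 (0.000144) or EV replicate 2 (0.000375).

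TSR1 and NOB1, which act late on the small subunit precursor, changed in KD in opposite directions. TSR1, a GTPase-like assembly factor (chromosome 17, 2322396 to 2336657), was at 104 and 106 CPM in NT and 146, 142 and 142 CPM in KD. NOB1, the nuclease that makes the final cut of the small subunit RNA (chromosome 16, 69741871 to 69754926), was at 127 and 136.1 CPM in NT and 85.8, 97.7 and 83.8 CPM in KD. Neither pair of groups overlapped. TSR1 rose 1.37-fold (log2 fold change 0.45 ± 0.047 SE, adjusted p = 1.32e-08) and NOB1 fell 1.48-fold (log2 fold change -0.56 ± 0.0589 SE, adjusted p = 1.54e-08), and both calls held in every alternative with the same limit of p.

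In the other arm TSR1 was at 117 and 112 CPM in EV and 107, 110.3 and 112 CPM in OE, and NOB1 was at 107 and 107 and 116, 125 and 114 CPM. The interaction was -0.52 ± 0.0662 SE for TSR1 (adjusted p = 8.14e-07) and 0.71 ± 0.0841 SE for NOB1 (adjusted p = 2.69e-07). TSR1 shares 1146 exon bases with SRR on the opposite strand, and whether the counts use strand is not given in the sources used here. The other members of the group, RRP9 of the U3 particle, the export factor RRP12, UTP20 and HEATR1 of the processome, were called in the comparison without controls alone. There RRP12 and RRP9 were higher in OE than in KD (0.47 and 0.39 in log2, adjusted p = 2.72e-08 and 1.06e-06). UTP20 and HEATR1 were lower (-0.30 and -0.26, adjusted p = 1.57e-05 and 6.65e-05). RRP12 was also higher in EV than in NT (0.31, adjusted p = 0.00044), and its interaction was 0.16 (adjusted p = 0.124). For RRP9, UTP20 and HEATR1 the control lines differed by 0.13, -0.03 and -0.05 (adjusted p = 0.156, 0.715 and 0.561). HEATR1 shares 2095 exon bases with LGALS8 on the opposite strand.

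The large subunit group had 2 rises and 0 falls in each arm, and in OE both calls were lost with library size as the only scaling or with the GC offset. NOP16, a nucleolar assembly factor of the large subunit (chromosome 5, 176383946 to 176388927), was at 39.8 and 37.6 CPM in NT and 56.6, 57.0 and 58.9 CPM in KD. The samples of EV and OE were at 37.1 to 41.8 CPM, the level of NT. NOP16 rose 1.49-fold in KD (log2 fold change 0.57 ± 0.059 SE, adjusted p = 1.16e-08), and its interaction was called (log2 fold change -0.47 ± 0.0844 SE, adjusted p = 7.04e-05) but was lost when any 1 of 8 samples was left out, KD replicate 2 and OE replicate 3 being the exceptions (adjusted p from 0.000206 to 0.00146).

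PES1, BOP1 and WDR12 form the PeBoW complex, which is needed to cut the large subunit precursor. Their log2 fold changes were 0.18, 0.45 and 0.09 with KD against NT, and 0.35, 0.31 and -0.09 with OE against EV. WDR12 was not called in either arm (adjusted p = 0.19 and 0.194). BOP1, on chromosome 8 like MYC, was at 129.6 and 119 CPM in NT, 168, 178 and 165 CPM in KD, 155 and 148 CPM in EV and 178, 201 and 184 CPM in OE. It was the only member called higher in both arms, 1.37-fold in KD (log2 fold change 0.45 ± 0.0563 SE, adjusted p = 2.35e-07) and 1.24-fold in OE (log2 fold change 0.31 ± 0.0557 SE, adjusted p = 5.55e-05). The second call was lost with the GC offset (0.028, adjusted p = 0.659), with library size as the only scaling (adjusted p = 0.00158), and without either EV sample, OE replicate 2 or OE replicate 3 (0.000162 to 0.005).

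PES1 was at 131 and 125 CPM in EV and 153, 173 and 163 CPM in OE, without overlap, and rose (log2 fold change 0.35 ± 0.054 SE, adjusted p = 7.25e-06). Its call was lost without EV replicate 1 (adjusted p = 0.000124) or EV replicate 2 (0.00114), with the GC offset (0.00504) and with library size only (0.000203). WDR12 was at 51.4, 54.1 and 52.3 CPM in KD and 40.6, 40.01 and 39.1 CPM in OE. It was lower in OE in the comparison without controls (log2 fold change -0.40 ± 0.0515 SE, adjusted p = 3.5e-07). WDR12 was also lower in EV than in NT (-0.22, adjusted p = 0.00848), and its interaction was -0.18 (adjusted p = 0.076).

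The remaining pair of the group had few counts. PPAN was at 7.66 to 10.8 CPM and was not called, and 1374 of its 2888 exon bases are shared with the readthrough gene PPAN-P2RY11, which had 0 counts. NOP2, a methyltransferase of ribosomal RNA, had 13 to 29 counts per sample and was not called. Of its 4687 exon bases, 2550 are shared on the same strand with another gene model that has no entry of its own in the table, so its level is uncertain.

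**Figure D3:**
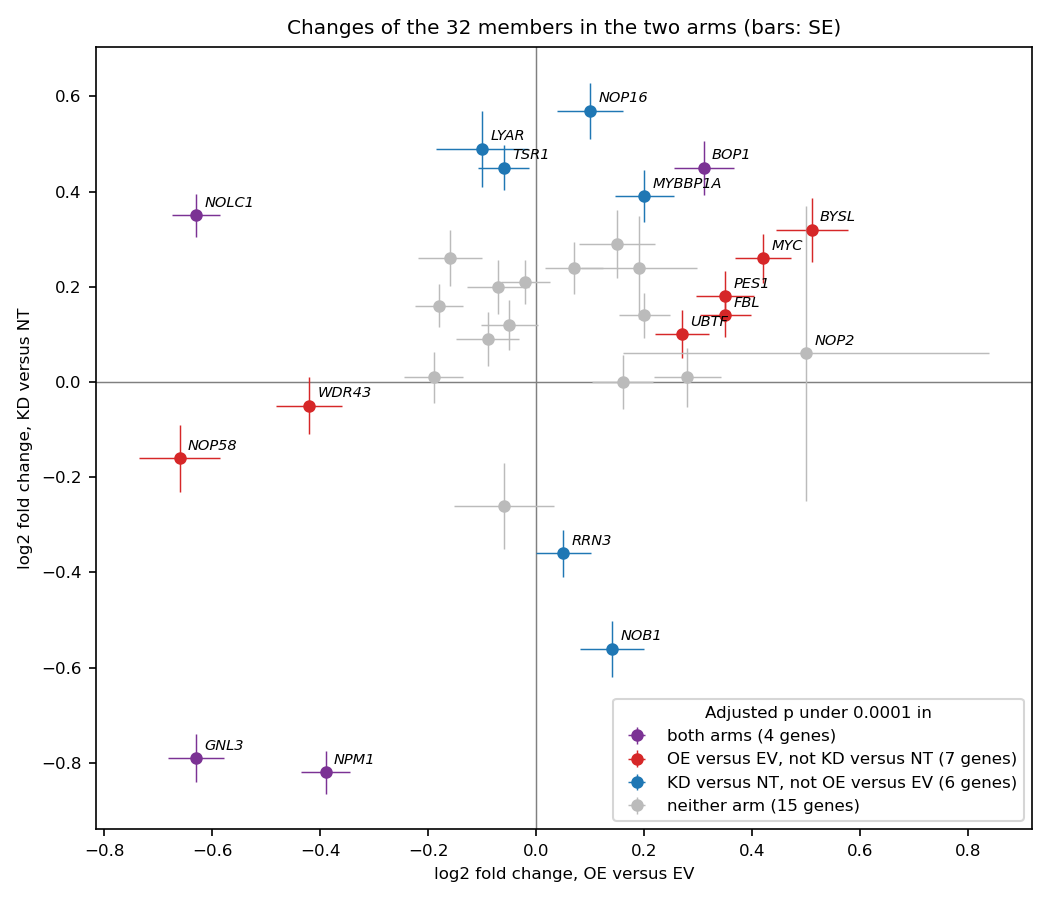
Log2 fold change with OE against EV (horizontal axis) and with KD against NT (vertical axis) of the 32 members, with bars for 1 SE and colours for the comparison in which the adjusted p was under 0.0001. BOP1 was called higher in both arms, GNL3 and NPM1 lower in both, and NOLC1 lower in OE and higher in KD, while 15 members were called in neither.

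The interaction asks whether the change in OE from EV differs from the change in KD from NT. It was called for 6 members, 3 positive (NOB1, NPM1 and RRN3) and 3 negative (NOLC1, TSR1 and NOP16), or 18.8% beside 15.9% of all genes (6.94% positive and 8.98% negative). With library size as the only scaling, where the median over all genes was -0.15, 1 was positive and 7 were negative. Without KD replicate 2, 11 were called, and without NT replicate 1 or EV replicate 2, 3 were called. The positive value of NPM1 (0.43) arose from falls of unequal size, since NPM1 fell in both arms. It was not called without NT replicate 1 (adjusted p = 0.000151) or EV replicate 2 (0.000156) or with library size only (0.000336).

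Placing OE beside KD without the controls gave the most calls among members. OE and KD also differ in vector and drug, which this comparison does not separate from the CPT1A level. Of the 32, 5 were higher in OE and 12 lower, or 53.1% beside 31.9% of all genes (15.5% higher and 16.4% lower). The higher ones were RRP12, NOB1, RRP9, MYC and UBTF. The 12 lower ones were NOP58, NOLC1, LYAR, NOP16, WDR43, NCL, WDR12, TSR1, GNL3, UTP20, HEATR1 and DKC1, which come from every role other than MYC itself and RNA polymerase I transcription. With library size as the only scaling the split was 3 higher and 14 lower, with the median over all genes at -0.15. Calls of HEATR1, UBTF and UTP20 were lost when some single samples were left out (adjusted p of 0.000108 to 0.00173 for HEATR1, 0.000225 to 0.000329 for UBTF and 0.000166 to 0.000316 for UTP20), and the GC offset ended those of GNL3, DKC1, UBTF, RRP9, WDR43, UTP20, HEATR1 and WDR12.

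The control lines, which received no CPT1A construct, differed in 3 members, or 9.38% beside 8.16% of all genes (5.25% higher and 2.91% lower in EV). NOP58, NPM1 and GNL3 were lower in EV than in NT, and 0 were higher. The count was 7 without KD replicate 2, and 10 without KD replicate 2 and OE replicate 2. The comparisons share samples (EV, NT, OE and KD each enter several), so their values stand side by side and are not independent of one another. Summed over the 32 members, CPM was 6008 and 5962 in NT, 5577, 5611 and 5557 in KD, 5435 and 5359 in EV, and 5034, 5151 and 5127 in OE. NT was highest and OE lowest in this sum, an order that NPM1 sets. Without NPM1 the sums were 4218 and 4207 in NT, 4574, 4620.5 and 4541 in KD, 4184 and 4108 in EV, and 4059, 4236 and 4153 in OE, so that KD was highest and the samples of the other 3 lines lay close together.

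Per kilobase of exon, the members spanned a wide range of abundance, and their order differed between lines. The length used was that of all annotated exons of a gene together, from 1476 to 19694 bases among members. It can exceed that of the transcript expressed, so the order between genes is approximate. NPM1 had the highest mean in every line, from 115 CPM per kilobase in OE to 213 CPM per kilobase in NT. The next was GNL3 in NT at 101 CPM per kilobase, NCL in KD and EV at 111 and 92.1 CPM per kilobase, and FBL in OE at 106 CPM per kilobase. GNL3 was above MYC in NT (101 and 52.8 CPM per kilobase) and below it in OE (47.0 and 81.7 CPM per kilobase). WDR12 at 4.80, PPAN at 3.15 and NOP2 at 0.181 CPM per kilobase, as means over the 10 samples, were the lowest.

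Further genes of the same pathways were counted in the same way. Beside the counts of these and the later lists stand the shares of all genes. Those were 11.6% higher and 10.3% lower with OE against EV, and 16.4% higher and 12.8% lower with KD against NT. Among 51 further small subunit factors, 7 rose and 6 fell with OE against EV, and 8 rose and 4 fell with KD against NT. IMP4 of the small subunit processome rose in KD (log2 fold change 0.81 ± 0.0582 SE, adjusted p = 2.18e-11), and the helicase DDX49 rose in OE (log2 fold change 0.53 ± 0.0674 SE, adjusted p = 5.68e-07). Among 52 further large subunit factors, 9 rose and 10 fell in OE, and 7 rose and 8 fell in KD. With library size as the only scaling, the splits in OE were 4 higher and 11 lower for the small subunit list and 4 higher and 14 lower for the large subunit list. RRP1B, of large subunit assembly, rose in KD (log2 fold change 0.67 ± 0.0521 SE, adjusted p = 8.76e-11), and RSL24D1, an assembly factor related to a ribosomal protein, fell in KD (log2 fold change -1.01 ± 0.0505 SE, adjusted p = 2.41e-14) and in OE (-0.32, adjusted p = 1.07e-05).

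Of 21 further RNA polymerase I subunits and factors, 4 rose and 3 fell in OE, and 5 rose and 3 fell in KD. POLR1D, a subunit shared with RNA polymerase III, fell in KD (log2 fold change -0.53 ± 0.0545 SE, adjusted p = 1.18e-08), and TCOF1, the nucleolar protein treacle, rose in KD (log2 fold change 0.70 ± 0.0542 SE, adjusted p = 7.64e-11). Of 13 further snoRNP proteins and assembly factors, 4 rose and 0 fell in OE (1 with library size as the only scaling), including SNU13 of box C/D particles (0.33 in log2, adjusted p = 1.67e-05) and NOP10 of box H/ACA particles (0.34, adjusted p = 1.07e-05). In KD, 2 of them rose and 1 fell. Of 14 genes of the RNA exosome, which trims ribosomal RNA precursors, 1 rose and 3 fell in OE, and 4 rose and 2 fell in KD, with EXOSC2 (0.49, adjusted p = 5.55e-07) and MPHOSPH6 (0.44, adjusted p = 7.15e-05) among the rises.

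The MYC network and MYC target lists were mixed as well. Of 12 tested genes that encode MYC partners and antagonists, 3 rose and 3 fell in OE, and 4 rose and 2 fell in KD. MAX, the partner of MYC, averaged 65.0 CPM in EV and 75.7 CPM in OE (adjusted p = 0.00123, not called), and MLXIP rose in KD (log2 fold change 0.37 ± 0.0495 SE, adjusted p = 6.11e-07). Of 25 further genes known to be induced by MYC, 4 rose and 3 fell in OE, and 9 rose and 4 fell in KD. The KD counts stand beside 16.4% higher and 12.8% lower of all genes, so calls were more frequent in this list than over all genes. CDC25A, a cell cycle phosphatase, rose 3.01-fold in KD (log2 fold change 1.59 ± 0.0863 SE, adjusted p = 1.2e-13), and SLC16A1, a lactate transporter, fell in KD (log2 fold change -1.10 ± 0.0487 SE, adjusted p = 2.98e-15) and in OE (-0.31, adjusted p = 1.26e-05). Of 6 genes known to be repressed by MYC, 3 rose and 0 fell in OE, where MYC also rose. With library size as the only scaling, or without EV replicate 1, 1 of them rose. In KD 2 rose and 0 fell, with a median log2 fold change of -0.16. Those that rose in OE included the cyclin-dependent kinase inhibitors CDKN1A (log2 fold change 0.46 ± 0.0641 SE, adjusted p = 2.2e-06) and CDKN1B (log2 fold change 0.27 ± 0.0505 SE, adjusted p = 8.85e-05).

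**Figure D4:**
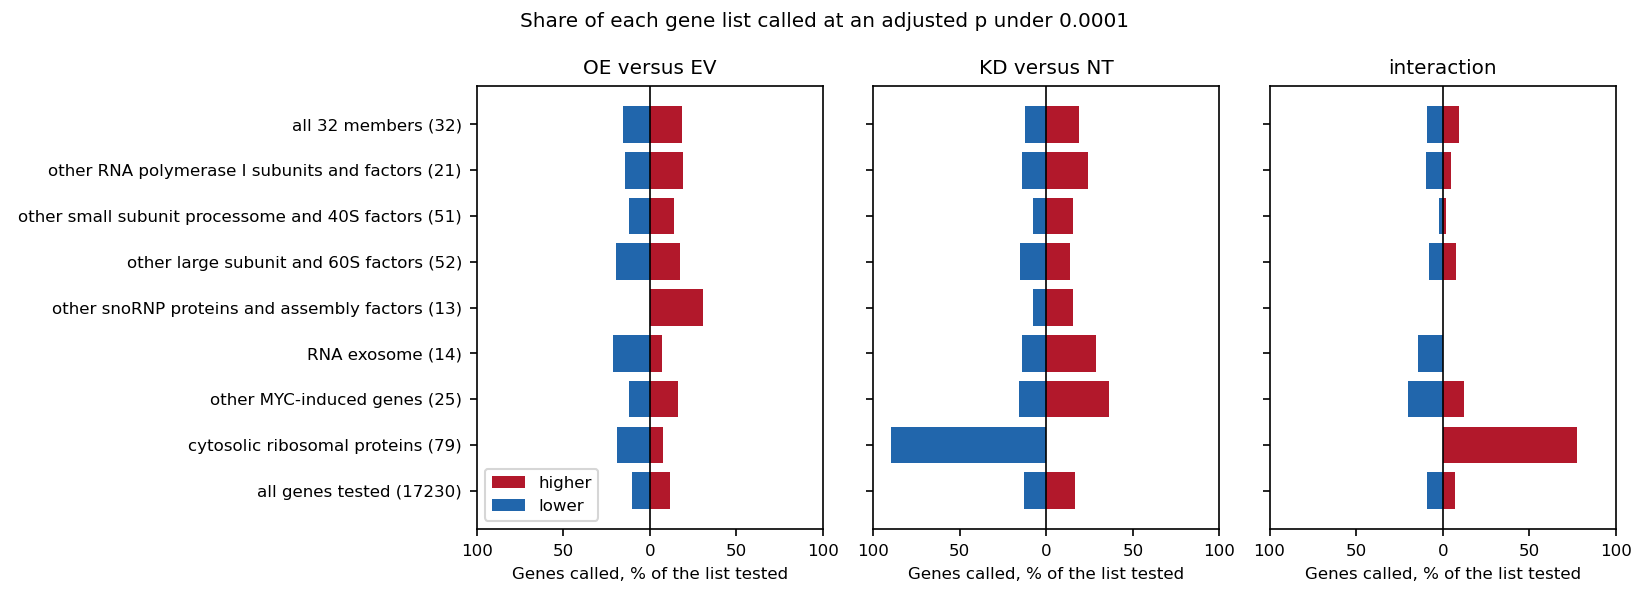
Share of the tested genes of each list called higher (red, to the right of 0) or lower (blue, to the left of 0) at an adjusted p under 0.0001, in percent (horizontal axes), for the 32 members, 7 further lists and all 17230 genes tested (vertical axis, number tested in parentheses), in the comparisons of OE with EV and KD with NT and in the interaction. The members and most lists hold calls on both sides, while the 79 cytosolic ribosomal proteins lie on the lower side in KD and 4 of the 13 further snoRNP genes lie on the higher side in OE.

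The mature ribosome's own proteins differed from the assembly factors. Of 79 genes of cytosolic ribosomal proteins, 0 rose and 71 fell in KD (median -0.58 in log2), and 6 rose and 15 fell in OE (median -0.04). The falls in KD numbered 62 to 76 over the alternatives with the same limit of p, and without KD replicate 2 and OE replicate 2 they numbered 76. In OE the split was 3 higher and 26 lower with library size as the only scaling, 3 higher and 7 lower without EV replicate 1, and 2 higher and 10 lower without EV replicate 2. Their summed level was 96863 and 97075 CPM in NT, 63563, 70119 and 63330.2 CPM in KD, 79996 and 78010.2 CPM in EV, and 77833, 81246 and 76267 CPM in OE. NT stood above all other lines. EV, which carries no CPT1A cDNA, was below NT, with 36 of the 79 genes lower, beside 2.91% of all genes. RPS29 fell in KD (log2 fold change -0.73 ± 0.0489 SE, adjusted p = 5.51e-12).

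All 12 proliferation markers rose in KD (median 1.33 in log2), in every alternative run with the same limit of p, while 2 rose and 3 fell in OE. In OE the calls were 1 higher and 0 lower without either EV sample. Their summed level was 828 and 884 CPM in NT, 2427, 2092 and 2209 CPM in KD, 939 and 926 CPM in EV, and 1032, 1008 and 1006 CPM in OE. MCM3, a subunit of the replicative helicase, rose 2.62-fold in KD (log2 fold change 1.39 ± 0.0519 SE, adjusted p = 1.46e-16), and MCM4 of the same helicase rose 2.66-fold (log2 fold change 1.41 ± 0.0615 SE, adjusted p = 2.09e-15). The KD samples therefore stood apart from the other 7 in these genes, as they did in NOP16, TSR1, LYAR and NOLC1. The part of proliferation in the members' values was not tested.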

How the data were processed

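RNA sequencing was analysed for 10 samples of 4 LNCaP-C4-2 lines. The authors sequenced poly(A) libraries (NuGen Universal Plus mRNA) in pairs on a NovaSeq, removed adapters with BBDuk, and aligned and quantified reads with STAR against the Ensembl human transcriptome (hg38.p12). As deposited, the values are whole-number counts for 57353 gene symbols, and 0 columns were left out. Strandedness and the handling of reads that match several genes are not given in the sources used here. Columns were assigned by the sample titles.

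After filterByExpr, which kept 17230 genes, and TMM scaling, the quasi-likelihood F test of edgeR 4.0.16 (R 4.3.3) was run with 1 mean per line over all 10 samples. Benjamini-Hochberg adjustment covered all genes tested, and every adjusted p in the text comes from this test unless another is named. Genes were called under 0.0001. The SE is the log2 fold change divided by the square root of F. The biological coefficient of variation shared by genes was 0.0446. The precision at these depths was limited mainly for genes with few counts, since 3 counts equal 0.0995 to 0.136 CPM.

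The members, lists and markers were chosen with earlier results of these data known. All members were named, with CPT1A, the 2 genes of each further list with the smallest interaction p, and the highest gene of each marker list, apart from genes that are not reported here. Other markers were named after their values were seen. Positions and exon lengths came from GENCODE v44 (GRCh38), matched by symbol for all 32 members, and promoters from RefSeq. Alternatives were other scaling (DESeq2 1.42.0 size factors, library size only), other filters, the DESeq2 Wald test, limma-voom (limma 3.58.1), the replicate block, each arm alone, a GC offset, other limits and leaving out each sample.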

Additional observations from a re-analysis of the deposited data

How the results depend on the processing

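Counts of members called moved with the limit, the scaling and single samples. With an adjusted p under 0.05, 19 members were called with OE against EV, 22 with KD against NT, 18 in the interaction, 13 with EV against NT and 24 with OE against KD without the controls. With a log2 fold change of at least 0.5 besides p under 0.0001, the counts were 4, 4, 3, 2 and 4. The GC offset gave 6 with OE against EV and 5 with EV against NT. Without the filter on low counts, 10 were called in the interaction and 7 with EV against NT. Leaving out 1 sample at a time gave 5 to 12 with OE against EV, 8 to 11 with KD against NT, 3 to 11 in the interaction, 2 to 7 with EV against NT and 13 to 18 with OE against KD. Where this left 1 sample in a line, that sample was assumed to vary like the others. Without KD replicate 2 and OE replicate 2, a choice made after seeing the data, the counts were 13, 17, 11, 10 and 20. The cause of these differences was not tested.

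Deviations of same-numbered samples of different lines had a mean correlation of 0.005 over 13 pairs, against -0.003 over 24 others. The samples of NT, and those of EV, deviate from their line mean as mirror images, so values of their pairs are tied together. These means therefore cannot settle whether the numbers pair samples. KD replicate 2 and OE replicate 2 had the highest value, 0.171, where the highest among differently numbered pairs was 0.091. With replicate number as a block, 13 members were called with KD against NT, 9 in the interaction and 5 with EV against NT.

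Of 47 called values, 0 changed sign in 914 recomputations, and calls were lost 90 times. Among values not called, the GC offset turned the sign with OE against EV for MYBBP1A (-0.022), RRP12 (-0.043), HEATR1 (0.025) and NOB1 (-0.006), with KD against NT for NHP2 (-0.007), and with OE against KD for NHP2 (-0.072), BOP1 (-0.169) and PES1 (-0.044), and library size only turned NHP2 there (-0.025).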
